A study of Mus musculus with 8 samples.

Results

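The peaks of DNA breaks that lay on core promoters in Chd1 KO mouse ES cells were examined, that is, Chd1 KO peaks whose summit fell between -100 and +100 bp of the nearest annotated transcription start site (TSS). Peaks with TSSs of protein-coding genes on both strands within 1 kb of the summit (divergent promoters) were left out, since such a summit cannot be assigned to 1 gene. Of the 5671 Chd1 KO peaks, 1409 met this rule (24.8%, Wilson 95% interval 23.7 to 26.0), and 151 further summits within 100 bp of a TSS were dropped as divergent. In DSB-seq, terminal transferase adds biotinylated nucleotides to free DNA ends, and the tagged fragments are pulled down on streptavidin and sequenced. It was carried out on an established Chd1 KO line (Chd1Δ/Δ) and on control cells (Chd1fl/Δ), which carry 1 deleted and 1 floxed allele, with 2 replicates each. The replicates of each genotype were combined before peaks were called, so 1 list per genotype was analyzed. No value below therefore has a replicate error, no test between the genotypes was possible, and all intervals cover counting error only. Peaks of 1 list are not replicates of a condition.

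The core promoter is the short stretch around the TSS on which RNA polymerase II and the general transcription factors assemble. In mammals most core promoters lie in CpG islands, where G and C are frequent and CpG dinucleotides are retained, and many lack a TATA box. Chd1 is a chromatin remodeler whose chromodomains bind histone H3 trimethylated at lysine 4, a mark of active promoters, and ES cells are known for a high transcriptional output. Stretches of G can fold into G-quadruplexes, 4-stranded structures that can impede polymerases.

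The sequence at the summits is shown first for 8 members, because runs made only of G and C recurred there. The first group holds members among the 20 with the highest fold enrichment (Fam46c, Prkar1b, Abcc8, Elovl2, Ggh, Fam49b) and the second group the members with the lowest values whose windows lie outside annotated exons (Tet3, Zcchc14). Each is given 5′ to 3′ on the strand of the gene, in mm9 coordinates, around the run nearest to the summit. Capitals mark uninterrupted G/C stretches 12 bp long or longer.
Fam46c (chr3:100293221-100293250, minus strand): CCGCGGGGCCCCGGCCGGCGCGCCCCGCCC
Prkar1b (chr5:139605714-139605783, minus strand): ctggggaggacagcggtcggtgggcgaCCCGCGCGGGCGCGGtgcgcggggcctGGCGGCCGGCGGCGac
Abcc8 (chr7:53435402-53435431, minus strand): GCGGGGCGGGCCGGGGCGGGGCGGGGCGGG
Elovl2 (chr13:41315819-41315898, minus strand): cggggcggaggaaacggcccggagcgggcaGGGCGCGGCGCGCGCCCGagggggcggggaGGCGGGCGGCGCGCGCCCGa
Ggh (chr4:19969073-19969152, plus strand): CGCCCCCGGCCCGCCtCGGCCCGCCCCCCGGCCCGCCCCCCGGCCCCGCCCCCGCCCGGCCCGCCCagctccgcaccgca
Fam49b (chr15:63892015-63892074, minus strand): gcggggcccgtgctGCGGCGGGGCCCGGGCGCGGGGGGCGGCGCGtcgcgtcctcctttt
Tet3 (chr6:83391675-83391744, minus strand): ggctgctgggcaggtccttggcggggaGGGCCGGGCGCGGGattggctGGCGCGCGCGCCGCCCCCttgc
Zcchc14 (chr8:124176813-124176892, minus strand): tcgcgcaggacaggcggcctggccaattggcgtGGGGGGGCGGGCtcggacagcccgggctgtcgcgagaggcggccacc
The summits of Prkar1b, Elovl2, Ggh, Fam49b and Tet3 lay inside a marked run, and those of Fam46c and Abcc8 were 3 and 19 bp from it. The run nearest to the summit was 50 bp long in Ggh and 12 bp in Zcchc14, whose longest run was 14 bp. Each sequence was printed around a run, so these examples do not compare strong with weak peaks.

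The peaks that the study named for promoters are shown next in the same way. Of 7 such genes, 3 had a core promoter peak. These were Rif1, which acts in the choice of break repair pathway and in replication timing, Usp46, a deubiquitinating enzyme, and Syngr1, a membrane protein of synaptic vesicles.
Rif1 (chr2:51928332-51928361, plus strand): gccgctGGGCCCGCCCCCCGCCGCCatctt
Usp46 (chr5:74464458-74464487, minus strand): tCCCCGCCCCGCGCCGCCGCCCCGCCCtcg
Syngr1 (chr15:79921743-79921772, plus strand): aggggaGGGGGCGGGGGCGCCGCGCacgcg
The Rif1 summit lay at -4 bp with a fold enrichment of 6.35, the Usp46 summit at -25 bp with 4.85, and the Syngr1 summit at -35 bp with 5.35. Rfx2, a transcription factor of ciliary genes, and Mpp5, a cell polarity protein, had their summits at +233 and +277 bp and are not members. Actb and Rpl3 had no Chd1 KO summit in the 1 kb around their TSSs. The Syngr1 peak was also the nearest to Rpl3, at 7.89 kb from it.

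Within the core promoter window, the summits lay about evenly on both sides of the TSS. Of the 1409 summits, 717 lay upstream (50.9%, interval 48.3 to 53.5), 680 downstream and 12 on the TSS base, with a median position of -1 bp and quartiles of -38 and 37 bp. They were densest near the TSS, with 218 summits in the 20 bp before the TSS base and 216 in the 20 bp from it on, against 104 and 109 in the outermost bins of 20 bp. A total of 882 (62.6%) lay within 50 bp. The rule fixes the window but not the side within it. Because this window is symmetric, it draws the median position toward the TSS by itself, so that median is no evidence of centering. Outside the window the sides differed: 1450 peaks had their summit between 101 bp and 1 kb downstream, and 550 did so upstream. Over the whole range up to 1 kb, divergent promoters left out, more summits therefore lay downstream than upstream. Annotation of several TSSs per gene shortens the distance to the nearest one, and 298 of the summits (21.1% of members) were nearest to a TSS of a transcript that is not protein-coding, such as a retained intron form.

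**Figure D1:**
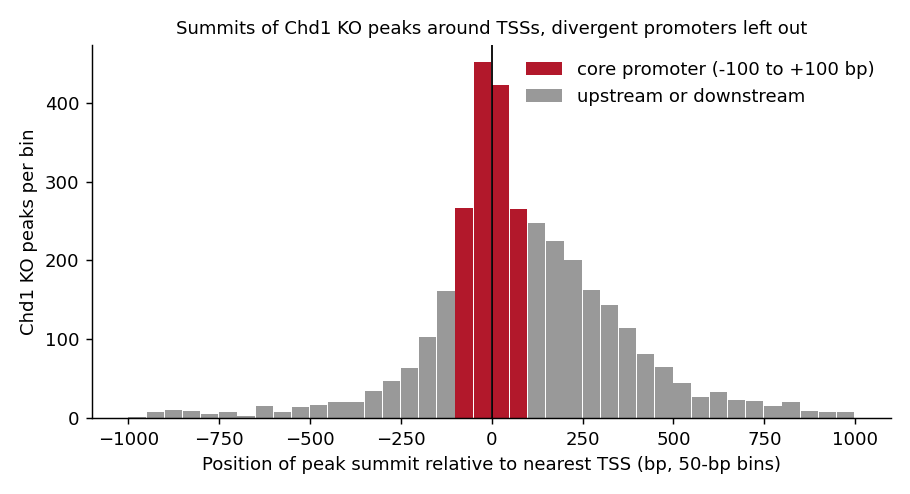
Number of Chd1 KO summits in bins of 50 bp (y axis) by position relative to the nearest TSS (x axis, bp, negative upstream), with core promoter bins in red and other bins in gray; a summit at exactly +100 bp is drawn in the next bin. The bins on both sides of the TSS held 451 and 422 summits, and the counts fell more slowly downstream than upstream.

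The members with a summit on the TSS base itself were Jag2 (a Notch ligand), Braf (a kinase that activates the MAP kinase cascade), Sfxn1 (a mitochondrial serine transporter), Ppa2 (mitochondrial pyrophosphatase), Chrna7 (a subunit of the nicotinic acetylcholine receptor), Ppm1l (a protein phosphatase), Erlin1, Pxk, Fsd1l, Wtip, Wwc2 and C630020P19Rik. Their fold enrichment ranged from 3.59 in Ppm1l to 5.95 in Sfxn1. At the edges of the window, the 22 summits from -100 to -96 bp had a median fold enrichment of 4.91 and the 22 from -105 to -101 bp one of 4.63. On the other side, the 23 summits from 96 to 100 bp had 4.46 and the 29 from 101 to 105 bp had 4.54. Rnf139, Rabep2 and Tbl1x were among the members just inside at -100 bp and Api5, Vdac1 and Ewsr1 among those at 100 bp, and Picalm and Stim1 at -101 bp and Tmcc1, Rufy2 and Ttll11 at 101 bp were among those just outside.

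Fold enrichment is the authors' value at the summit, the reads over the local background of the same library, each plus 1. Over the 1409 members it ranged from 3.03 to 7.86 with a median of 4.54 (interval 4.48 to 4.56) and quartiles of 4.09 and 5.14. The reads behind it, each extended to 200 bp, were recovered from the fold enrichment and the p-value. They ranged from 14 to 48 per summit with a median of 21, over a local background with a median of 3.82 reads, so a change of a few reads moves a value by a large part of this range. Peaks upstream had a median of 4.54 (interval 4.45 to 4.60) and peaks downstream one of 4.49 (4.44 to 4.54), whose intervals overlap that of the core promoter peaks. The 1998 peaks more than 1 kb from every TSS had a median of 4.78 (4.76 to 4.84), above it. Within the core promoter, medians of the 20-bp bins stayed between 4.45 and 4.63, with the highest from -40 to -20 bp. Peak width had a median of 316 bp, and the TSS base lay inside the peak in 97.4% of members. By the annotation, 50.7% of summits lay in the non-coding part of an exon, 26.8% between genes, 13.3% in an intron and 9.16% in coding sequence.

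**Figure D2:**
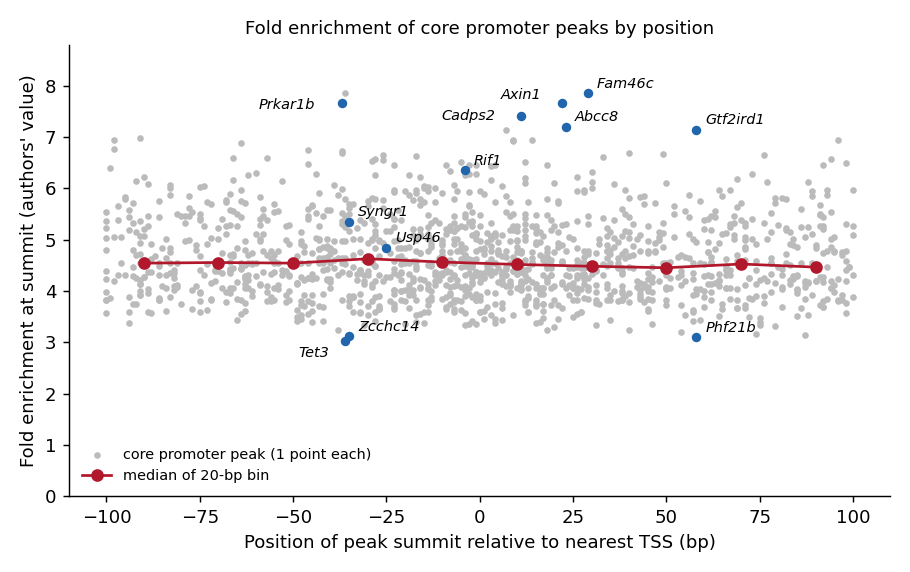
Fold enrichment at the summit (y axis, authors' value) against summit position relative to the nearest TSS (x axis, bp), 1 gray point per core promoter peak, with medians of 20-bp bins in red and named genes in blue. The bin medians lie between 4.45 and 4.63 across the window, while single peaks spread from 3.03 to 7.86.

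The highest fold enrichment, 7.86 from 38 reads, was at D930015E06Rik, a protein-coding gene known only by a clone name, at -36 bp. Among protein-coding genes with other symbols, Fam46c, a poly(A) polymerase, was the highest with 7.85 from 37 reads over a background of 3.84. It was followed by Axin1, the scaffold of the complex that degrades beta-catenin, with 41 reads and a fold enrichment of 7.66. Its -log10 p-value of 25.7 was the highest among the members. Prkar1b, a regulatory subunit of protein kinase A, also had 7.66, from 33 reads. Cadps2, a factor of dense core vesicle release, had 7.41. Abcc8, the sulfonylurea receptor subunit of the ATP-sensitive potassium channel, had 7.20 and Gtf2ird1, a transcription factor related to TFII-I, had 7.14. Zfp598, a ubiquitin ligase that recognizes collided ribosomes, had 7.14 as well, with its summit at +7 bp in coding sequence.

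The next members were Elovl2, an elongase of polyunsaturated fatty acids, with 6.98, and then Sncaip, Lhx2 (a LIM homeobox factor) and Ggh (gamma-glutamyl hydrolase of folate metabolism), each with 28 reads and 6.93. Glis1, a zinc finger factor, had 6.92, and Cacna2d1, an auxiliary subunit of voltage-gated calcium channels, had 6.77. Fam49b, Snx2 (a sorting nexin), Cfl2 (a cofilin, which severs actin filaments), Stx2 (a syntaxin of membrane fusion), Etnk1 (ethanolamine kinase), Lrp12 and Patl1 (an mRNA decay factor) lay between 6.65 and 6.88. Over the 20 strongest of these genes, clone names left out, the summits held 27 to 41 reads, 9 lay upstream of the TSS, the GC content was between 74.6 and 84.6%, the longest G/C run was between 15 and 50 bp and 11 held a G-quadruplex motif. At the other end, Tet3, a dioxygenase that oxidizes methylated cytosine, had 3.03 from 15 reads, and Phf21b and Zcchc14 had 3.10 and 3.12. With counts this small the values of neighbours in this order cannot be told apart.

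Chd1 itself had a core promoter peak, with its summit at -66 bp, 21 reads and a fold enrichment of 4.45, near the median of all members. This peak lies at the promoter and is no check of the deletion. Of the 9 Chd remodelers, Chd4 (3.75) and Chd7 also had one, and Chd7 had 2, at -94 and 17 bp of different TSSs, with 3.88 and 3.95.

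The sequence of the members was then described, which the rule did not use. Within 100 bp of the summit, the GC content had a median of 78.1% with quartiles of 75.1 and 81.1%, against 57.7% around all 70051 TSSs of protein-coding genes. The ratio of observed to expected CpG was 0.964, against 0.537 at all TSSs. A run of G and C of at least 12 bp was present in 1319 members (93.6%, interval 92.2 to 94.8), against 25.2% of windows of the same length at all TSSs, a difference of 68.4 percentage points (interval 67.0 to 69.6). The members and all TSSs were not matched in GC content. Of the 4030 TSSs with 75 to 80% GC, 249 held no such run. The run was as frequent in peaks upstream (93.8%) and downstream (92.5%), with differences of -0.21 points (-2.43 to 2.40) and 1.13 points (-0.74 to 3.01). Runs of at least 20 bp were present in 41.8% of members, against 4.88% of all TSSs, 37.4% of downstream peaks and 53.5% of peaks far from TSSs. The summit lay inside a run in 329 members (23.3%) and within 50 bp of one in 1182 (83.9%).

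The runs followed the TSS as closely as they followed the summit. The median gap to the nearest run was 12 bp from the summit (interval 11 to 14) and 13 bp from the TSS (12 to 15). For the 492 members with the summit 50 bp or more from the TSS and unequal gaps, the run was nearer to the summit in 258 (52.4%, interval 48.0 to 56.8). GC content peaked at 79.9% in the 20 bp before the summit and at 79.7% in the 20 bp before the TSS. The 90 members without a run had a median fold enrichment of 4.19 (interval 4.07 to 4.33), and the 589 with a run of at least 20 bp one of 4.67 (4.59 to 4.77). Over all 1409 members, fold enrichment and GC content had a Pearson correlation of 0.23 and a Spearman correlation of 0.26, and fold enrichment and distance from the TSS one of 0.00715 and 0.00225. These are descriptions across peaks of 1 combined library, which share depth and base composition. GC content can change how well a fragment is amplified and sequenced, and its part in these values was not tested.

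**Figure D3:**
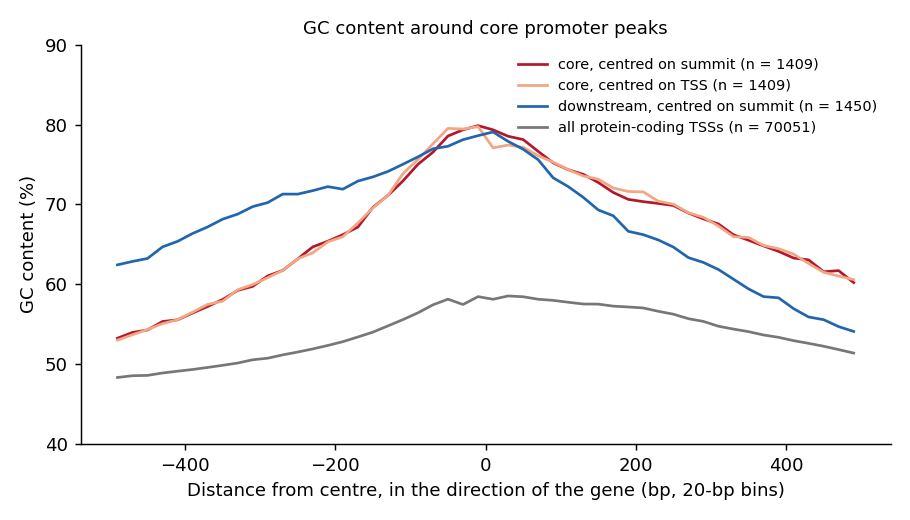
GC content (y axis, %) in 20-bp bins by distance from the center (x axis, bp, in the direction of the gene) for the 1409 core promoter peaks centered on the summit (red) or the TSS (light red), for the 1450 downstream peaks centered on the summit (blue) and for all 70051 protein-coding TSSs (gray). Core promoter peaks reach 79.9% at the summit, downstream peaks 79.1%, and all TSSs at most 58.6%.

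A G-quadruplex motif, 4 runs of at least 3 G with 1 to 7 bases between them on either strand, was present within 100 bp of the summit in 714 members (50.7%, interval 48.1 to 53.3). The share was 14.4% in windows of the same length at all TSSs, 44.3% in downstream peaks (difference 6.33 points, 2.67 to 9.97) and 54.9% in upstream peaks (difference -4.23 points, -9.10 to 0.69). All TSSs were not matched to the members in GC content. The motif was present at 1725 of the 4030 TSSs with 75 to 80% GC and at 828 of the 1453 with 80 to 85%. Of the 714, 381 held it on the strand of the gene alone, 270 on the other strand alone and 63 on both. The strand moved with the side of the TSS. Where the summit lay downstream, 67.5% had the motif on the strand of the gene (interval 62.2 to 72.4), and where it lay upstream, 57.5% did (52.5 to 62.3). The difference was 9.98 points (interval 2.82 to 17.0). The other strand carried it in 39.6% and 52.6%, lower downstream (interval of the difference -20.1 to -5.60 points). At all TSSs with a motif, 58.6% had it on the strand of the gene. The motif and the runs overlap in sequence, and members with the motif had a median fold enrichment of 4.59 (4.54 to 4.66), against 4.46 (4.39 to 4.54) without it. The motifs of 4 strong members are printed to show both orientations, with the 4 runs of G of 1 match, or of C where the motif is on the other strand, in capitals. Further runs beside the match are in lower case.
Fam46c (chr3:100293163-100293192, minus strand): cGGGGGcaGGGGcGGGGaggcgcGGGGGag
Abcc8 (chr7:53435382-53435411, minus strand): gcGGGGcGGGccgtgcGGGagcccaGGGtg
Gtf2ird1 (chr5:134932494-134932523, minus strand): gtccgCCCtccttCCCtCCCtCCCtctact
Cfl2 (chr12:55963868-55963917, minus strand): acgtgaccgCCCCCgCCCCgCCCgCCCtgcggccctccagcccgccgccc
In Fam46c and Abcc8 the G runs were on the strand of the gene, and in Gtf2ird1 and Cfl2 on the other strand.

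Among other simple sequences, at least 5 copies of CGG in a row, on either strand, were present in 68 members (4.83%), against 0.857% of all TSSs and 1.40% of peaks far from TSSs. Peaks upstream (4.18%) and downstream (3.59%) held them at shares whose differences from the members, 0.64 points (-1.61 to 2.50) and 1.24 points (-0.24 to 2.74), have intervals that include 0. Axin1, Gmeb2 and Usp47 were the strongest of these. CA repeats of at least 20 bp were found in 1 member (0.0710%) and alternating CG of at least 12 bp in 4 (0.284%). In peaks more than 1 kb from TSSs these shares were 23.9% and 25.5%, so core promoter peaks differed from them by -23.9 points (-25.8 to -22.0) and -25.2 points (-27.2 to -23.3). At all protein-coding TSSs the shares were 0.501% and 0.157%, in downstream peaks 0.483% and 0.759%, and in upstream peaks 1.45% and 2.91%. Both repeats were thus rare at TSSs in general.

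Base content was then set against whether a TSS had a core promoter peak at all. Of the 18744 protein-coding TSSs with a GC content under 50% within 100 bp, 0 had a core promoter summit in that window, which allows a share of up to 0.0160%. The share rose from 0.22% at 60 to 65% GC to 1.12% at 65 to 70%, 6.65% at 70 to 75%, 22.9% at 75 to 80% and 43.3% at 80 to 85%. It was 30.1% (interval 23.8 to 37.3) over the 176 TSSs at 85 to 90%. Between 65 and 80% GC, the share was higher with a long run. At 70 to 75% GC it was 15.1% (12.8 to 17.7) with a run of at least 20 bp and 3.53% (2.74 to 4.54) without a run of at least 12 bp, and at 75 to 80% it was 26.5% and 11.6%. G-quadruplex motifs went with a smaller difference, 26.5% (24.5 to 28.6) with and 20.1% (18.5 to 21.8) without at 75 to 80%, and at 80 to 85% the intervals overlapped (44.4% and 41.8%). TSSs of 1 gene can share a window and are not independent.

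**Figure D4:**
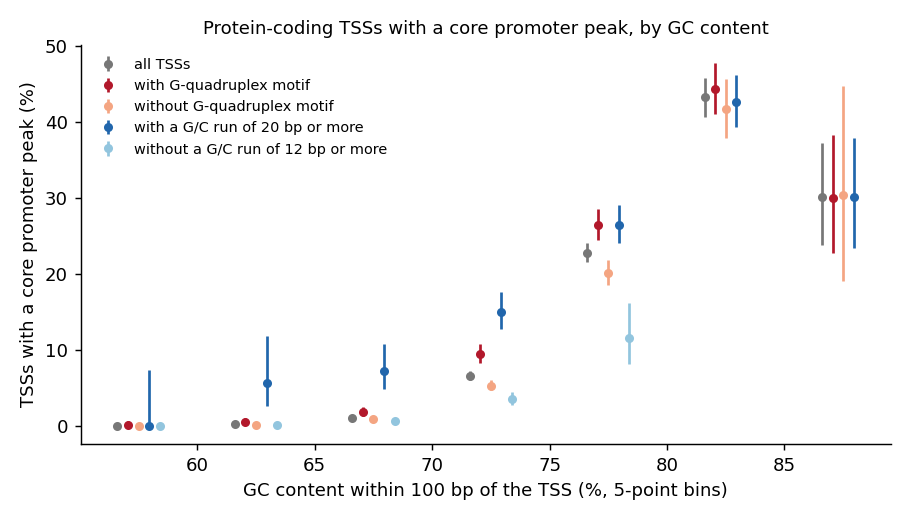
Share of protein-coding TSSs with a core promoter summit within 100 bp (y axis, %) by GC content of that window (x axis, %, bins of 5 points, with the 5 groups of a bin set side by side), for all TSSs and for those with or without a G-quadruplex motif or a G/C run. Bars are Wilson 95% intervals and groups of under 20 TSSs are left out. The share over all TSSs climbs from near 0 to 43.3% at 80 to 85% GC, and TSSs without a run lie lowest at 75 to 80%.

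Binding motifs of promoter factors were searched on both strands within 100 bp of the members' TSSs. The GC box GGGCGG, the core of the Sp1 and Klf site, which also lies within many G/C runs, was present in 1257 members (89.2%, interval 87.5 to 90.7). It was present in 34.5% of all protein-coding TSSs, 74.9% of the 21192 TSSs with a GC content of at least 65%, and 71.9% of TSSs with a downstream peak. The difference from the last was 17.3 points (14.4 to 20.1). The CCAAT box, bound by NF-Y, was present in 12.5% of members and 17.2% of TSSs with a downstream peak, a difference of -4.68 points (-7.28 to -2.08). The Yy1 site AGATGGC was present in 3.05% and 6.83%, a difference of -3.78 points (-5.39 to -2.20). TSSs with an upstream peak held the CCAAT box in 14.9% (12.2 to 18.1) and the Yy1 site in 3.45% (2.22 to 5.33). The intervals of the members overlap these. TATAAA between -40 and -15 bp on the strand of the gene was found in 2 members, Rbp4 and Alpk3, which is 0.142% (interval 0.0389 to 0.516) against 1.31% of all TSSs and 0.472% (0.388 to 0.574) of TSSs with a GC content of at least 65%, so the last intervals overlap. For the Nrf1 site core TGCGCA (6.74%), the Ets site CCGGAAG (6.67%), the E-box CACGTG (5.25%), the cAMP response element TGACGTCA (1.14%) and the Znf143 site ACTACAA (0.355%), the interval of the difference from downstream TSSs included 0. The Ets site was less frequent at TSSs with an upstream peak, 2.91% (1.80 to 4.67), than in members (5.48 to 8.10). For the other sites in this list the upstream intervals overlapped those of the members. At TSSs with a GC content of at least 65%, each of these sites was more frequent (11.1%, 12.7%, 7.10%, 2.47% and 1.04% in the same order). Those intervals do not overlap the members' intervals, but these groups were not matched in GC content. A match describes letters and not binding. The strongest member with a cAMP response element outside exons, the site in the Relb promoter (an NF-kappaB subunit), the E-box of Cadps2, and the Yy1 site of Rif1 are shown, with the motif in capitals.
Otud7a (chr7:70589501-70589580, plus strand): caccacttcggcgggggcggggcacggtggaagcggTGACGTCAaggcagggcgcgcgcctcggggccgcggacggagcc
Relb (chr7:20214817-20214896, minus strand): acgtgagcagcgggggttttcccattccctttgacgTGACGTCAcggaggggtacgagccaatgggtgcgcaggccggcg
Cadps2 (chr6:23789457-23789536, minus strand): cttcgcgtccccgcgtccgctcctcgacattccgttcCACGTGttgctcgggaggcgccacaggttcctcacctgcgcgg
Rif1 (chr2:51928342-51928371, plus strand): ccgccccccgccGCCATCTtggtcgtggag

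The members were nearest to TSSs of 1389 genes, of which 1320 were protein-coding. That is 5.90% of the 22367 protein-coding genes in the annotation, and 30 gene families defined by symbol were read against this share. The share also moved with the number of annotated TSSs, from 2.46% of genes with 1 TSS to 10.4% of genes with at least 4. Genes with a core promoter peak had a median length of 43.8 kb (interval 38.8 to 48.0), against 15.4 kb for all protein-coding genes and 45.0 kb (42.4 to 47.6) for genes with a downstream peak.

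Housekeeping families of protein synthesis and turnover were without core promoter peaks. None was found at 148 cytosolic ribosomal protein genes (up to 2.03% allowed by 3 counts), 67 translation initiation and elongation factors (4.48%), 52 proteasome subunits (5.77%) or 43 subunits of respiratory complex I (6.98%). Olfactory receptors (0 of 1113), silent outside olfactory neurons, and keratins (0 of 51), intermediate filaments of epithelia, also had none. Summits at divergent promoters were dropped by the rule, but genes with such promoters stayed in these totals and in the 5.90%. With those summits kept, the share of all protein-coding genes was 6.56%. The part of the rule in these zeros was not tested. The limits of the proteasome and keratin families (5.88% for the latter) lie just under 5.90% and that of complex I above it, so these counts are too small to tell those families from all genes. Base content moved with these counts. A TSS window with a GC content of at least 70%, a limit set after the values were seen, was present in 12.8% of ribosomal protein genes and 4.65% of complex I genes, against 28.1% of all protein-coding genes and 96.6% of genes with a core promoter peak. No olfactory receptor or keratin gene had such a window. Of all 6281 genes with such a TSS, 20.3% had a core promoter peak. Translation factors had such a TSS in 29 of 67 genes, and 0 of these 29 had a core promoter peak, which allows up to 10.3%. Of ribosomal protein genes with such a TSS, 0 of 19 had a core promoter peak, which allows up to 15.8%. The limits of 10.3% and 15.8% lie under 20.3%, but that of the proteasome, 0 of 12 (25.0%), does not. Complex I had only 2 such genes. GC content was not matched within this class. There the share of TSSs with a core promoter summit ran from 6.65% at 70 to 75% GC to 43.3% at 80 to 85%. Whether these families differ from other genes of equal GC content was therefore not tested. A Chd1 KO peak lay within 1 kb of a TSS in 12 of 67 translation factor genes (17.9%) and 7 of 148 ribosomal protein genes (4.73%). The counts were 4 of 52 for the proteasome (7.69%) and 0 of 43 for complex I. Over all protein-coding genes this share ran from 8.32% with 1 annotated TSS to 22.1% with at least 4.

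Families of signaling, ubiquitin and vesicle traffic genes were among those with the highest shares. Ubiquitin-conjugating enzymes had a peak at 9 of 36 genes (25.0%, interval 13.8 to 41.1), with Ube2j2 at 4.84, Ube2e1 at 4.79 and Ube2j1 at 4.68. Among ubiquitin-specific proteases it was 9 of 51 (17.6%, 9.57 to 30.3), led by Usp47 at 6.22 and Usp32 at 5.75, followed by Usp46. Wnt ligands and Frizzled receptors had peaks at 6 of 29 genes (20.7%, 9.85 to 38.4), the ligands Wnt5b (5.52) and Wnt2b (5.33) and the receptor Fzd3 (5.38) among them. MAP kinases of all tiers had 7 of 41 (17.1%, 8.53 to 31.3), with the stress-activated kinases Map3k5 (4.71) and Mapk8 (4.67), and the Rab group 11 of 67 (16.4%, 9.42 to 27.1), with Rab28 (5.26), the Rab effector Rab11fip5 (5.00) and Rab7 of late endosomes (4.67). Semaphorins, plexins and ephrins had 8 of 52 (15.4%, 8.01 to 27.5), with the semaphorin receptor Plxna1 at 6.33 from 39 reads.

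Cyclins and cyclin-dependent kinases had 6 of 43 (14.0%, 6.56 to 27.3), with Ccnl1 of RNA processing (6.06), the Cdk5 activators Cdk5r1 (5.81) and Cdk5r2 (5.75), and Cdk9 of transcription elongation at 3.44. Forkhead factors had the same count, with Foxj2 (5.94), Foxp1 (5.67) and Foxk1 (5.09). Smad factors and TGF-beta receptors had 3 of 20 (15.0%, 5.24 to 36.0, which holds 5.90%), namely Smad5 (4.92), Smad2 (4.44) and Tgfbr1 (3.65). Chd remodelers had 3 of 9 (33.3%, 12.1 to 64.6). In those with a GC-rich TSS, the share of ubiquitin-conjugating enzymes was 36.0% (20.2 to 55.5), of ubiquitin-specific proteases 27.3% (15.1 to 44.2) and of Wnt and Frizzled genes 33.3% (16.3 to 56.3). These 3 intervals hold 20.3%. So do those of MAP kinases (24.1%), the Rab group (30.3%), semaphorins, plexins and ephrins (25.8%), cyclins and cyclin-dependent kinases (33.3%) and forkhead factors (30.0%). The interval of the Chd remodelers, 3 of 5 genes (23.1 to 88.2%), began above 20.3%, but it rests on 5 genes and is not matched in GC content. The GC content at their summits was 76.1 to 84.6%. Of all TSSs, 22.9% had a core promoter summit at 75 to 80% GC and 43.3% at 80 to 85%.

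In the remaining families the intervals held 5.90%, or in the case of cyclases and phosphodiesterases began just above it at 5.91%. Solute carriers had 22 of 355 (6.20%, 4.13 to 9.20), led by the bicarbonate transporter Slc4a7 (5.75), and potassium channels 8 of 96 (8.33%), led by Kcnd3 (4.95). Zfp zinc finger genes had 13 of 371 (3.50%, 2.06 to 5.90), led by Zfp598 and Zfp629 (5.80). F-box proteins had 5 of 76, with Fbxo30 at 5.62, phosphatase subunits 6 of 62, with Ppp1r2 at 5.02, and cyclases and phosphodiesterases 5 of 37, with Adcy2 at 5.48. Splicing factors had 3 of 49 (Srsf12 at 6.01, Srsf6 at 4.59, Srsf1 at 4.06). Of the 49, 18 (36.7%) had some Chd1 KO peak within 1 kb, against 8.32 to 22.1% of all protein-coding genes by number of annotated TSSs. Klf and Sp factors had 3 of 26, led by Klf16 at 4.29, SWI/SNF and ISWI subunits 2 of 23 (Smarcc2 at 4.30, Smarca4 at 4.10) and tetraspanins 2 of 21 (Tspan5 at 5.84). Single genes were Sox30 of 19 Sox factors, Hoxc8 of 40 Hox factors, Kdm4b of 16 lysine demethylases and Med25 of 31 Mediator subunits.

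**Figure D5:**
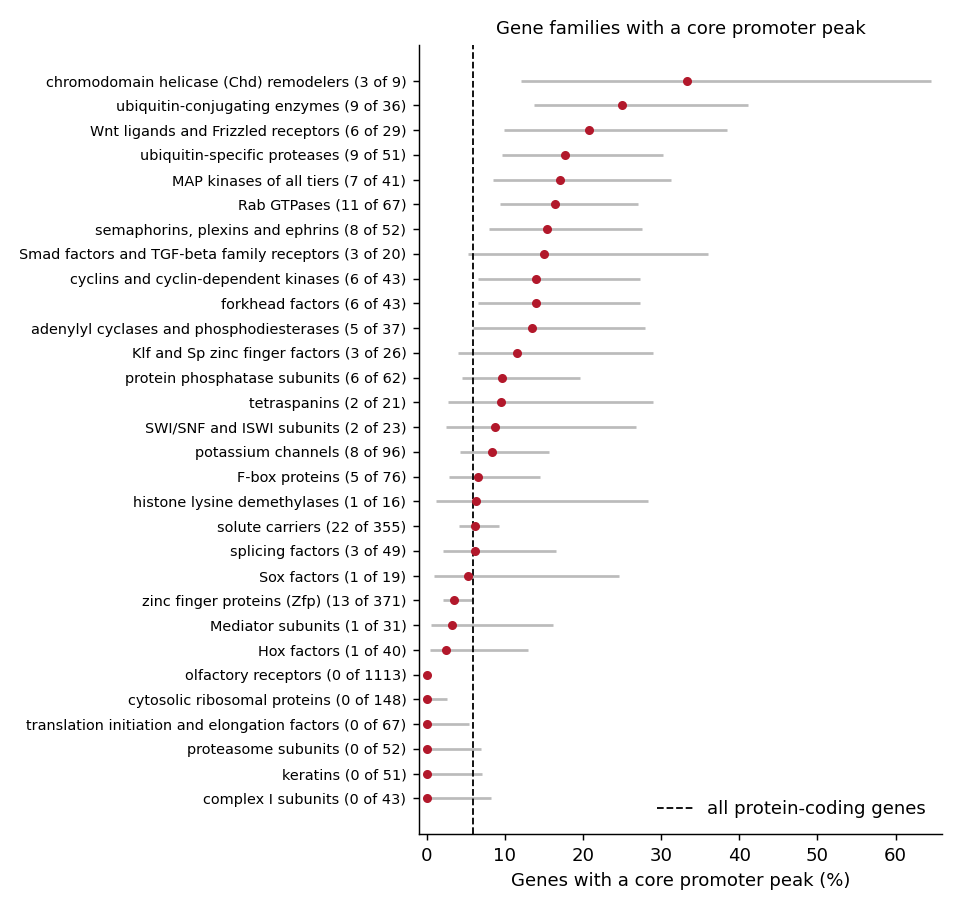
Share of protein-coding genes with a core promoter peak in 30 families (x axis, %), with Wilson 95% intervals as bars and the counts beside each family name. The dashed line is the share of all protein-coding genes, 5.90%. Ubiquitin-conjugating enzymes lie at 25.0% and the ribosomal protein family at 0.

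In control cells, the same procedure gave 54 peaks, and all 54 lay more than 1 kb from every TSS. Thus 0 of the 1409 core promoter peaks overlapped a control peak, which allows a share of up to 0.213%, and 0 of 54 control peaks lay on a core promoter, which allows up to 5.56%. Over the 1282 members on chromosomes with a control peak, the nearest control peak was 27.3 kb away. The lists were called at different p-values, since the q-value is set within each library. The weakest control peak had a -log10 p-value of 7.13, and 1245 members (88.4%) reached that value. The lowest local background was 2.95 reads in control and 3.18 in Chd1 KO, a ratio of 0.927, so the libraries had a similar depth after removal of duplicates. Sites in control below the peak threshold were not seen in these lists.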

How the data were processed

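DSB-seq reads of the 2 replicates per genotype were processed by the authors, who mapped them to mm9 with Bowtie2, left out reads with a mapping quality under 13 and repeated reads at 1 position, and pooled both replicates. MACS2 was then run on each pool by the authors (reads extended to 200 bp, q-value cutoff 0.05), and blacklisted regions were taken out. The deposited fold enrichment is a ratio of reads at the summit to the local background within 1 combined library. For the same summit the authors gave a −log10 p-value and a −log10 q-value, and the deposited score column, which is derived from them, was not used. The ChIP-seq samples were not analyzed here.

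TSSs, exons and gene types came from GENCODE M1, and sequence from the mm9 genome. Shares have Wilson and differences of shares Newcombe 95% intervals, and medians have order-statistic intervals. For a count of 0, the limit is 3 counts of the total. The read number and background behind each peak were solved from its fold enrichment and Poisson p-value. This step, the class and distance of peaks, the search for G/C runs and G-quadruplex motifs, and the median intervals were tested on simulated data. The other steps were not. G/C runs, G-quadruplex motifs and GC content refer to 201 bp around the summit or TSS. Python 3.11.15, NumPy 2.4.6, SciPy 1.17.1, pandas 2.3.3, pysam 0.24.0, samtools 1.23.1 and Matplotlib 3.10.9 were used.

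The members, motifs and gene families were chosen with earlier results of these data known. Results for 1 gene family are not reported here. The text names the 20 members with the highest fold enrichment among protein-coding genes with a symbol other than Gm plus a number or Rik, the genes that the study names for promoters, up to 3 members per family or motif, the 3 with the lowest fold enrichment, those with the summit on the TSS base and those at the edges of the window. Further genes, such as the other Chd and Wnt genes, were named after their values were seen. Alternatives changed the q-value, the minimum fold enrichment, the chromosomes, summit or midpoint, the transcripts, the window, the divergent rule, the sequence window, the motif definitions and the overlap required.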

Additional observations from a re-analysis of the deposited data

How the results depend on the processing

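Of 90 alternative values for 9 results, 76 stayed within 1.5 times of a count or within the interval of a share, median or difference, and 14 moved. With a window of 50 bp, 882 core promoter peaks remained and the share of protein-coding genes was 3.73%, and with 150 bp it was 7.58%, with 48.3% of summits upstream of the TSS. That share was 4.74% at a minimum fold enrichment of 4, where the median fold enrichment was 4.75, 5.41% with TSSs of protein-coding transcripts only, and 6.56% with divergent promoters kept. A G/C run was present in 94.8% of members placed by the midpoint of the peak and in 97.4% over the whole peak, and in 41.8% when it had to reach 20 bp. The share with a G-quadruplex motif was 64.7% over the whole peak, 71.2% with loops of 1 to 12 bases and 12.3% with runs of at least 4 G. Fewer or longer windows and stricter definitions change these by construction. The 76 include 11 for the overlap with control peaks, which had to be 0 because all 54 control peaks lay more than 1 kb from every TSS, so these say nothing of stability. Of the other 79 alternative values, 65 stayed. No paired analysis was possible because the replicates were combined into 1 list per genotype before the values were made, and no replicate could be left out for the same reason. Few reads per summit limit the ranking of single genes.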

Other observations

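Chromosome X held few core promoter peaks. Of 932 protein-coding genes on X, 3 had one (0.322%, Wilson 95% interval 0.110 to 0.942), against 6.15% (5.84 to 6.48) of 21418 genes on autosomes. These were Hmgb3, a chromatin protein of the high mobility group, with a fold enrichment of 5.50, Pnck, a kinase of the calmodulin-dependent family, with 4.06, and Tbl1x, a subunit of corepressor complexes, with 3.82. The other 2 peaks on X were at the pseudogene Gm6758 (4.30) and the non-coding gene B230206F22Rik (4.06). Over all Chd1 KO peaks, 12 of 5671 lay on X. Within one range of base content the gap remained: at TSSs with 75 to 80% GC, 1 of 62 on X had a core promoter summit (1.61%, 0.285 to 8.59), against 920 of 3968 on autosomes (23.2%, 21.9 to 24.5). The number of X chromosomes in these lines is not given in the sources used here, and the part of copy number in this gap was not tested. Among the autosomes, the share of genes ran from 3.67% on chromosome 14 to 8.78% on chromosome 4.

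There were 20 genes with 2 core promoter peaks at different TSSs, and none with more. In Rest, which encodes a repressor of neuronal genes, the summits lay at -53 and -21 bp of their TSSs, with fold enrichments of 4.41 and 4.35 from 26 reads each. Rnf44 had 5.49 and 5.40, Rbms1, an RNA-binding protein, 6.27 and 4.85, and Lin28b, an RNA-binding protein that blocks let-7 maturation, 4.54 and 5.26. Fam49b had 6.75 at one TSS and 4.25 at another. Of all members, 121 (8.59%) had a further Chd1 KO summit within 1 kb of the same TSS, and their median fold enrichment was 4.37 (4.15 to 4.53), against 4.55 (4.51 to 4.59) for the rest.

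A total of 69 members were nearest to a TSS of a gene that is not annotated as protein-coding, namely 27 lincRNAs, 22 processed transcripts, 12 pseudogenes and 8 genes annotated as miRNA. The strongest was the pseudogene Gm8946, with 6.69 from 27 reads and a GC content of 59.7% around its summit, below the lower quartile of the members. 5033417F24Rik (6.25) and Gm13620 (6.19) followed, both nearest to the TSS of a lincRNA transcript. Of the 8 entries annotated as miRNA, 4 had their summit in coding sequence of an overlapping gene, so both genes share the peak.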
